A study of Mus musculus with 8 samples.

Results

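The genes described here encode the proteins that license replication origins, unwind DNA and copy it, 51 genes listed by function, out of 45777 in the count table. They were grouped by role into origin licensing (9 genes), the replicative helicase and its activation (15) and DNA polymerases (9). Further groups were the sliding clamp with lagging-strand processing and single-strand binding (11) and fork protection (4). The last group was replication-coupled chromatin assembly and maintenance DNA methylation (3). All 51 were found once in the table and all passed the filter on low counts, with 119 to 9276 counts per library.

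RNA sequencing was done on colonic organoids, epithelial cultures grown in Matrigel from crypts of male mice aged 9 weeks. In the Reg3aΔIEC group (KO, 4 libraries, replicates 5 to 8) loxP-flanked exons 2 to 4 of Reg3a, a secreted lectin gene, were the target of Villin-Cre, a recombinase under the Villin promoter, which is active in intestinal epithelium. The Reg3a fl/fl group (WT, 4 libraries, replicates 13 to 16) carried the same loxP-flanked gene. Both groups were collected 3 days after a passage, within 15 passages, with no further treatment. The labels give 1 mouse per genotype in 4 wells in one place and 3 mice per genotype in another. The spread behind each p is that between libraries and may be technical, and genotype cannot be told apart from mouse or organoid line.

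Before a cell divides, the origin recognition complex (ORC) marks replication origins, and CDC6 and CDT1 help it to load the ring of MCM2 to MCM7 there. The kinase CDC7 with DBF4 then helps CDC45 and GINS to join the ring, which unwinds DNA ahead of polymerases alpha, delta and epsilon. Many of these genes are switched on by E2F factors as cells enter S phase. In the colon, dividing cells lie in the lower crypt, and organoid cultures hold dividing and differentiated cells together.

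Library totals were 37182098 to 49256171 counts. Reg3a had 0 counts in all 8 libraries, so it gives no check of the labels. The epithelial markers were detected in every library, among them Vil1, which encodes the brush border protein villin, and the intestinal transcription factor Cdx2, which both rose. Of 6 fibroblast markers none had enough counts to test and 3 (Col1a2, Dcn and Lum) were at 0 throughout; their summed level was 0.0425 to 0.371 CPM (counts scaled to library size) in KO and 0.142 to 0.234 CPM in WT. Immune markers summed to 0.8496 to 1.42 CPM in KO and 0.511 to 0.903 CPM in WT, with Cd3e at 0. Other cell states moved with genotype. For comparison, 8.26% of all tested genes fell and 7.63% rose at an edgeR adjusted p under 0.05. Summed CPM was 1239 to 1333 in KO and 1528 to 1780 in WT for 12 mitotic genes (12 fell), 309.7 to 329.6 in KO and 356 to 363 in WT for 7 crypt stem cell genes (5 fell), and 4564 to 4783 in KO and 2769 to 3294 in WT for 8 colonocyte genes (6 rose, 1 fell). Goblet cell genes summed to 108 to 137 CPM in KO and 151 to 202 CPM in WT (4 of 7 fell). Enteroendocrine genes summed to 18.5 to 27.0 CPM in KO and 26.9 to 39.2 CPM in WT (3 of 6 fell). Tuft cell genes summed to under 1 CPM in every library (1 of 4 was tested and fell, and Pou2f3 was at 0), and endothelial genes to 0 to 1.67 CPM in KO and 0 to 0.0538 CPM in WT. The 13 protein genes of the mitochondrial genome took 1.30 to 1.62% of counts in KO and 0.923 to 1.13% in WT. The part of these in the results was not tested.

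Promoter sequences are shown because E2F words recur among the members, both those that fell and those not called. They are given for the 6 called members with the smallest adjusted p, 1 per role, that hold a word recognised by E2F factors (the words TTTCCCGC, TTTCGCGC, TTTGCCGC, TTTGGCGC and TTCCCGCC, on both strands, each allowed to overlap another). Each runs from 250 bases before a listed RefSeq transcript start to base 30 of the transcript on the gene's own strand (GRCm38.p6). That start can lie inside the gene span given below, as for Orc1 and Mcm5. Capitals mark the words.
Orc1, chr4:108579204-108579483, plus strand: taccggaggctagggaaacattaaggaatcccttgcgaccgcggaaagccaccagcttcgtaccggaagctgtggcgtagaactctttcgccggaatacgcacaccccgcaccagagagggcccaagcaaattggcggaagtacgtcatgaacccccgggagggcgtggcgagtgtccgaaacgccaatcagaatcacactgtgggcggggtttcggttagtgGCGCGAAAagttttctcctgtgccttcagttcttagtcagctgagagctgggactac
Mcm5, chr8:75109259-75109538, plus strand: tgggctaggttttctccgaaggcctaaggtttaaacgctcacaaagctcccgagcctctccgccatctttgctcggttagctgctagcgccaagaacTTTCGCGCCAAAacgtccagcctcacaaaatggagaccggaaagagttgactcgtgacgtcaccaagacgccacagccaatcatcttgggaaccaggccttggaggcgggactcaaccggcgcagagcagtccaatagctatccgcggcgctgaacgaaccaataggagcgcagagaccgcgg
Prim1, chr10:128014965-128015244, plus strand: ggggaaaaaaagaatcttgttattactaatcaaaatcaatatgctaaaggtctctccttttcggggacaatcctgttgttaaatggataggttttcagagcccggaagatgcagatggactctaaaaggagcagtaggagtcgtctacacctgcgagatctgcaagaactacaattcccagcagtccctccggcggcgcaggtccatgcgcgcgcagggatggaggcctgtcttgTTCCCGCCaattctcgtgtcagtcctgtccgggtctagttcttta
Rfc3, chr5:151651179-151651458, minus strand: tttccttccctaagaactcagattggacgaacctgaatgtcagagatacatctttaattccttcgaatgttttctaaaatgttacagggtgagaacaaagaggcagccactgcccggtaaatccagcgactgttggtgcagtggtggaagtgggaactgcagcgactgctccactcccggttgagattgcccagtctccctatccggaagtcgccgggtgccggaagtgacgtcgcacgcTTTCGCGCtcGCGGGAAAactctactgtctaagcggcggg
Clspn, chr4:126556730-126557009, plus strand: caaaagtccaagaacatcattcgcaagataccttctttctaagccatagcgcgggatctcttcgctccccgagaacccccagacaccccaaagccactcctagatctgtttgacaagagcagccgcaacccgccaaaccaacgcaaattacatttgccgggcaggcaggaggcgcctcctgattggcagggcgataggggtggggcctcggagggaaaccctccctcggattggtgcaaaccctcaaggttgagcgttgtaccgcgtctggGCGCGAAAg
Uhrf1, chr17:56303087-56303366, plus strand: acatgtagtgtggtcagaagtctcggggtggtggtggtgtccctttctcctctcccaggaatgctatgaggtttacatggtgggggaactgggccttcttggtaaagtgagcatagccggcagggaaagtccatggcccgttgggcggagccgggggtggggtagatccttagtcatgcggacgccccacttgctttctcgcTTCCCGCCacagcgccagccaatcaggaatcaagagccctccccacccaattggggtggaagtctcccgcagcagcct

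With the first transcribed base as 1 and no base 0, the words of Mcm5 begin at -153 and -149 and overlap. Those of Rfc3 begin at -10 and 1, and the single words in the printed windows of Orc1, Prim1, Uhrf1 and Clspn at -27, -15, -48 and 22. Uhrf1 has another listed start (window chr17:56304063-56304342, not printed), with the word TTTCGCGC at -185. Promoters were found in the table for 42 of the 51 members. At least 1 word was present in 15 of 30 called members (50%) and in 4 of 12 members not called (33.3%), and this difference was not tested. Among all tested genes with a promoter, 833 of 11074 (7.52%) held a word, and among all genes with a listed promoter the share was 1135 of 27025 (4.2%). A word in this window is a description of the letters, and the absence of one says nothing about binding elsewhere.

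Replication genes were lower in KO as a broad and shallow shift. Of 51 members 33 fell and none rose (edgeR, quasi-likelihood, p adjusted by Benjamini-Hochberg over 14945 genes, threshold 0.05), against 8.26% of all tested genes called lower and 7.63% called higher. No member was higher at an unadjusted p under 0.05, nor was any called higher with DESeq2 or limma-voom. The median log2 fold change (KO over WT) of the 51 was -0.28, beside -0.0012 for all tested genes, and 49 lay below 0. The list of 51 was drawn up with earlier results of these data known. The called members were 11.8% (Pold3) to 28.0% (Rpa2) lower in KO. In 34 members every KO library lay below every WT library, which held for 10.3% of all tested genes; 31 of these were called, and Prim2, Pcna and Rpa1 were not. Pola1 and Clspn were called although their libraries overlapped. In bulk RNA, fewer dividing cells and less RNA per cell cannot be told apart.

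**Figure D1:**
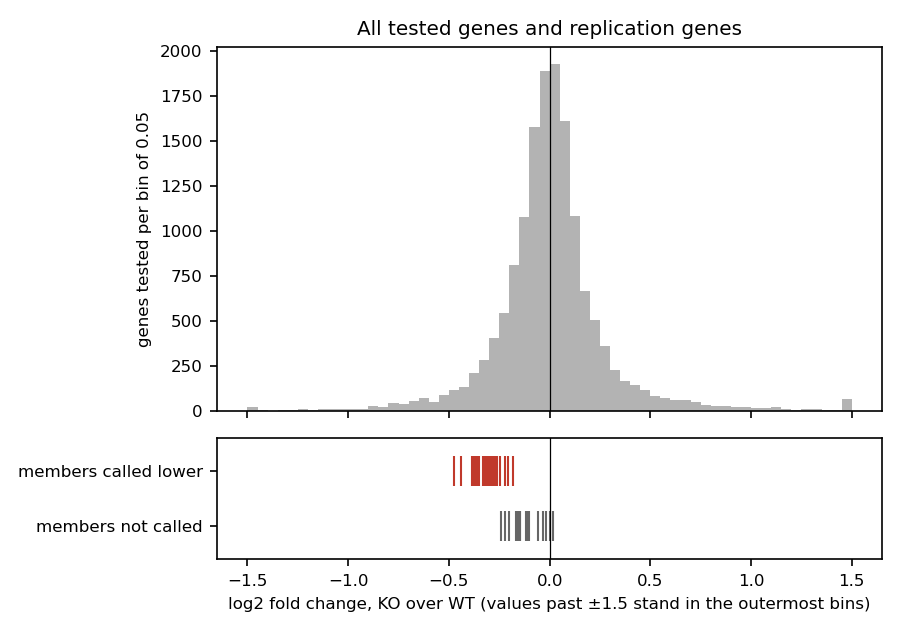
The upper panel counts all 14945 tested genes by log2 fold change (KO over WT, bins of 0.05). The lower panel marks each of the 33 members called lower and the 18 not called; the members lie between -0.47 and 0.02.

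The members together took 0.152, 0.158, 0.157 and 0.152% of counts in KO replicates 5, 6, 7 and 8, against 0.180, 0.182, 0.186 and 0.177% in WT replicates 13, 14, 15 and 16; values per library are given in this order from here on. Every KO share was below every WT share. The mean log2 CPM of the members, after centring each gene on its average over all libraries, was -0.141, -0.0874, -0.107 and -0.159 in KO and 0.131, 0.122, 0.155 and 0.0848 in WT. Spread within a genotype was small, with a median coefficient of variation of 5.26% in KO and 6.36% in WT, and was widest for Cdc7 in both (13.7% in KO and 11.8% in WT).

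**Figure D2:**
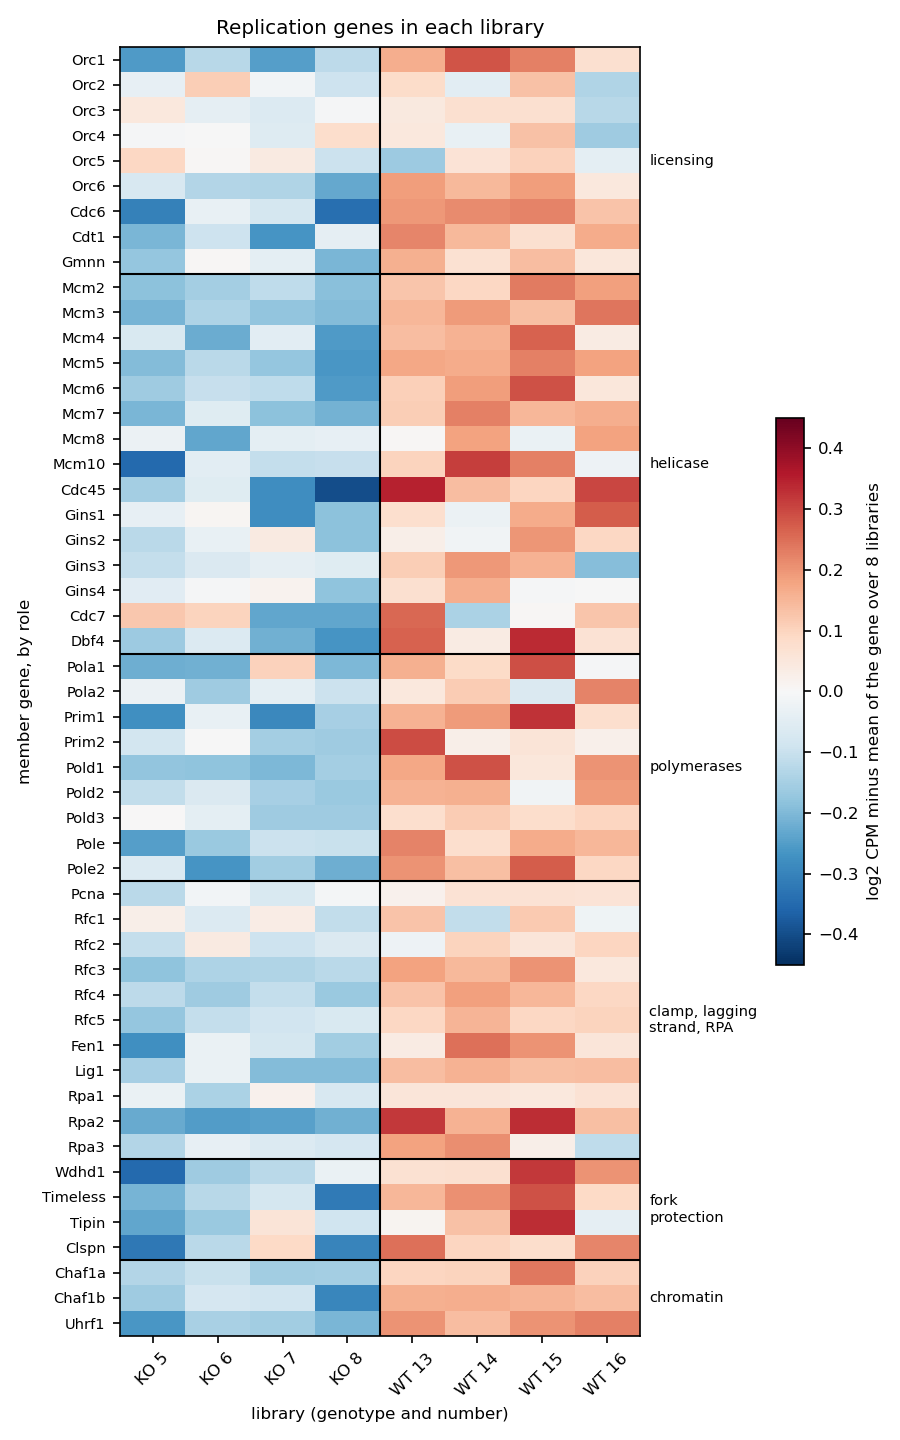
Each row is 1 of the 51 members and each column a library, KO left of WT. Colour gives log2 CPM minus the mean of that gene over the 8 libraries. KO replicate 8 (mean -0.159) is lowest and WT replicate 15 (mean 0.155) highest, while the rows of Orc2 to Orc5 show no split by genotype.

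Among origin licensing genes, 5 of 9 fell: Orc1, Orc6, Cdc6, Cdt1 and Gmnn. The other 4, Orc2 to Orc5, did not pass, with log2 fold changes of -0.03 to 0.02. In human cells ORC1 is the subunit whose amount follows the cell cycle, while ORC2 to ORC5 form a steadier core.

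Orc1 (chromosome 4, 108575705 to 108616030, GRCm38) had 7.95, 8.71, 8.00 and 8.74 CPM in KO, against 10.6, 11.6, 11.1 and 9.96 CPM in WT. The groups did not overlap, with a log2 fold change of -0.37 ± 0.08 (± is the SE for fold changes; adjusted p = 0.00436). Orc6, a subunit needed in yeast for loading the MCM ring, had 15.8, 15.2, 15.1 and 14.2 CPM in KO, against 19.0, 18.4, 18.9 and 17.2 CPM in WT (-0.29 ± 0.06, adjusted p = 0.00567). Again every KO library was below every WT library.

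Orc2 stood at 17.1, 18.9, 17.4 and 16.4 CPM in KO, against 18.5, 17.0, 19.2 and 16.0 CPM in WT, a log2 fold change of -0.02 ± 0.07 (adjusted p = 0.911). Orc3 had 57.5, 54.1, 53.4 and 55.5 CPM in KO, against 57.4, 58.5, 58.6 and 51.04 CPM in WT (-0.03 ± 0.05, adjusted p = 0.734). For Orc2 the libraries were interspersed, and for Orc3 WT replicates 14 and 15 lay above all KO libraries while WT replicate 16 lay below them. Values for Orc4 were 35.0, 35.1, 33.7 and 37.1 CPM in KO, against 36.3, 34.3, 38.5 and 31.5 CPM in WT (0.0027 ± 0.06, adjusted p = 0.986). Orc5, which with Orc4 is an ATPase-fold subunit, had 21.8, 20.5, 21.0 and 19.1 CPM in KO, against 18.2, 21.3, 21.9 and 19.8 CPM in WT (0.02 ± 0.07, adjusted p = 0.901). These 2 were the only members with a fitted value above 0, and in both the libraries overlapped.

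The loader gene Cdt1 had 21.8, 23.6, 21.0 and 24.5 CPM in KO, against 29.3, 27.8, 26.5 and 28.2 CPM in WT (-0.30 ± 0.06, adjusted p = 0.00425), with no overlap. Cdc6, the other loader gene, averaged 9.73 ± 1.04 CPM in KO organoids and 12.6 ± 0.364 CPM in WT (± SD over n = 4 libraries of each), a log2 fold change of -0.37 (adjusted p = 0.00669). Gmnn encodes geminin, which binds CDT1 and blocks a second round of loading. It averaged 32.5 ± 2.28 CPM in KO organoids and 37.6 ± 1.37 CPM in WT (-0.21 ± 0.06, adjusted p = 0.0245), but did not pass when KO replicate 5, KO replicate 8 or WT replicate 13 was left out (adjusted p = 0.0864, 0.0969 and 0.0782).

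Whether a loading factor moved differently from its inhibitor or partner was asked with count ratios within each library, which are free of library scaling. The ratio of Cdt1 to Gmnn was 0.706, 0.673, 0.619 and 0.808 in KO, against 0.751, 0.759, 0.688 and 0.781 in WT. These overlapped (two-sided exact permutation p = 0.371, adjusted p = 0.495 over 4 ratios). The ratio of Orc1 to Orc2 was 0.465, 0.460, 0.460 and 0.531 in KO, against 0.573, 0.681, 0.578 and 0.624 in WT. Every KO value was below every WT value, and the exact p was 0.0286, the smallest that 4 against 4 libraries allow. The adjusted p was 0.114. A single ratio at that smallest p cannot pass 0.05 after adjustment over 4 ratios, so the test cannot decide whether this ratio differed.

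**Figure D3:**
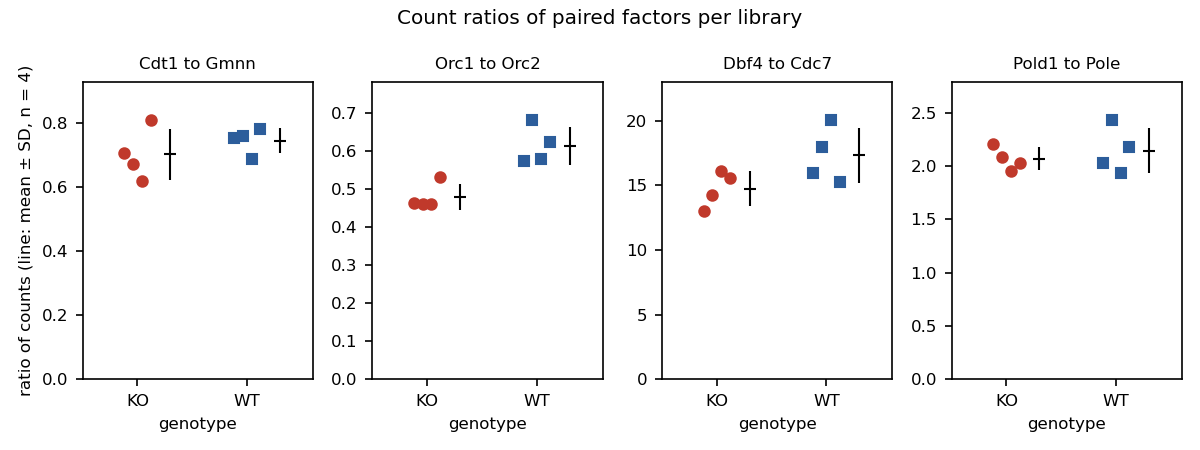
Points are ratios of counts of 2 members in each library (KO left of WT in each panel), and lines give the mean ± SD of 4 libraries. The KO and WT points are apart for Orc1 to Orc2 (means 0.479 and 0.614) and overlap for Cdt1 to Gmnn, Dbf4 to Cdc7 and Pold1 to Pole.

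All 6 genes of the MCM2 to MCM7 ring fell, with log2 fold changes of -0.37 to -0.30; differences among the 6 were not tested. Cdc45, which joins the ring to form the active helicase, had a fitted value of -0.44, while none of the 4 GINS genes passed the test. Of all 15 helicase and activation genes 9 fell, with a median log2 fold change of -0.31.

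Mcm5 (chromosome 8, 75109468 to 75128439), whose overlapping E2F words are printed above, had 41.9, 44.0, 42.5 and 40.0 CPM in KO, against 54.1, 53.7, 56.0 and 54.3 CPM in WT. No KO library reached WT (-0.37 ± 0.05, adjusted p = 0.000132). Mcm3 had 37.5, 39.5, 38.4 and 37.9 CPM in KO, against 48.2, 49.6, 47.7 and 51.3 CPM in WT (-0.36, adjusted p = 0.00016). Mcm7 had 85.2, 94.6, 86.5 and 84.8 CPM in KO, against 106, 115, 109 and 109.9 CPM in WT (-0.32, adjusted p = 0.000481). In these 3 genes no KO library reached the lowest WT library. Mcm2, Mcm4 and Mcm6 were likewise apart, at 44.4 ± 1.05, 45.8 ± 3.33 and 76.6 ± 3.57 CPM in KO organoids and 55.4 ± 2.38, 56.3 ± 3.70 and 95.5 ± 6.79 CPM in WT (± SD over n = 4 libraries of each).

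On a scale corrected for transcript length, the ring subunits were not at like levels. In the authors' TPM values Mcm7 stood at 72.2 ± 2.98 in KO and 88.5 ± 2.62 in WT, and Mcm6 at 51.3 ± 2.28 in KO and 62.6 ± 5.15 in WT. The other 4 lay close together, from 25.2 (Mcm5) to 26.3 (Mcm2) TPM in KO and from 30.7 (Mcm4) to 32.3 (Mcm5) TPM in WT. Ring genes summed to 223, 229.5, 232.5 and 219 TPM in KO, against 269, 277, 296 and 269.5 TPM in WT. The highest-to-lowest ratio within the ring was 2.86 in KO and 2.88 in WT. Mcm7 shares exon sequence with the microRNA genes Mir25 and Mir93 and the neighbouring genes Ap4m1 and Cops6, over 12.6% of its exon bases.

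Cdc45 averaged 11.8 ± 1.22 CPM in KO organoids and 16.0 ± 1.34 CPM in WT (± SD, n = 4; adjusted p = 0.00341). The products of the 4 GINS genes form a tetramer, which joins the ring as CDC45 does. The GINS genes had log2 fold changes of -0.24 ± 0.10 (Gins1), -0.15 ± 0.07 (Gins2), -0.15 ± 0.11 (Gins3) and -0.11 ± 0.06 (Gins4). The edgeR adjusted p of these genes was 0.123 to 0.438. Their libraries overlapped between genotypes, though all 4 fitted values were below 0. In TPM the GINS genes differed among themselves, from 2.90 (Gins3) to 31.7 (Gins4) in KO and from 3.13 to 33.5 in WT. Gins2 shares 67.3% of its exon bases with Gse1 on the other strand. A difference between the change of GINS and ring genes was not tested.

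Of the kinase that fires origins, the activator gene Dbf4 fell and the catalytic subunit gene Cdc7 was not called. Dbf4 averaged 50.01 ± 3.07 CPM in KO organoids and 64.0 ± 6.60 CPM in WT (-0.36 ± 0.07, adjusted p = 0.00369). Cdc7 was scarce, at 3.85, 3.80, 3.02 and 3.01 CPM in KO, against 4.24, 3.21, 3.55 and 3.86 CPM in WT (-0.12 ± 0.13, adjusted p = 0.618). The ratio of Dbf4 to Cdc7 was 14.8 ± 1.38 in KO and 17.3 ± 2.15 in WT and overlapped (exact permutation p = 0.143, adjusted p = 0.286). Mcm10, which stabilises the activated helicase, averaged 14.1 ± 1.26 CPM in KO organoids and 17.5 ± 1.77 CPM in WT (adjusted p = 0.0241). Mcm10 did not pass when KO replicate 5, 7 or 8 or WT replicate 14 was left out (adjusted p = 0.0504 to 0.0807). Mcm8, which works with MCM9 in recombination and is no part of the ring, was at 10.3, 8.95, 10.2 and 10.3 CPM in KO, against 10.6, 11.9, 10.3 and 11.9 CPM in WT (adjusted p = 0.182).

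**Figure D4:**
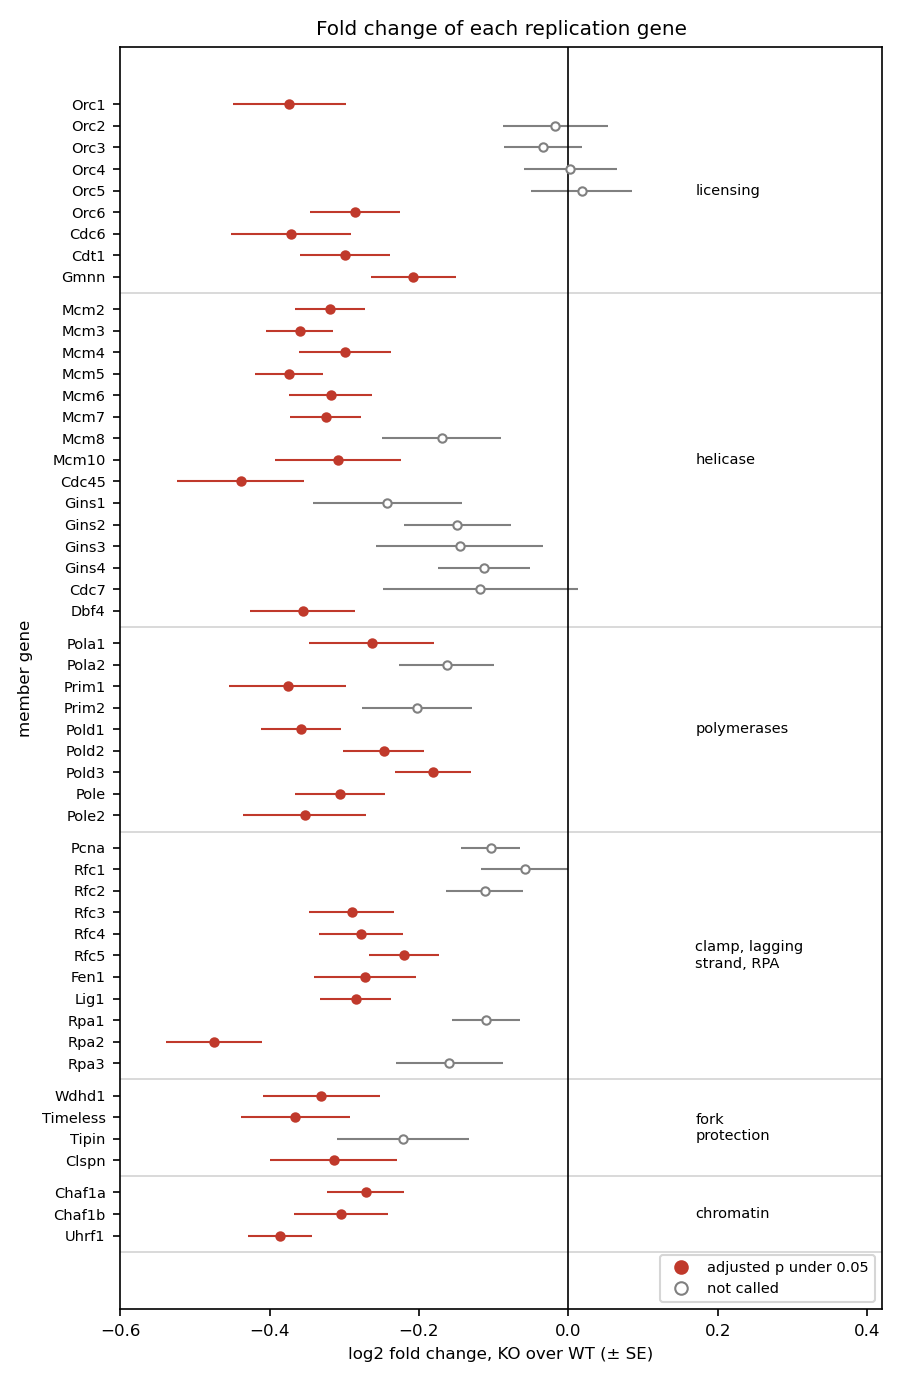
Points give the log2 fold change (KO over WT) of each member and lines its SE, grouped by role; filled points passed an adjusted p of 0.05. The ring genes Mcm2 to Mcm7 sit between -0.37 and -0.30, and Orc2 to Orc5 sit between -0.03 and 0.02.

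Of the 9 polymerase genes 7 fell, namely Pola1, Prim1, Pold1, Pold2, Pold3, Pole and Pole2. Polymerases delta and epsilon copy the lagging and leading strands. Their other subunit genes, counted among the further replication genes, did not pass, with log2 fold changes of 0.07 (Pold4, adjusted p = 0.458), -0.11 (Pole3, adjusted p = 0.427) and -0.01 (Pole4, adjusted p = 0.970). The polymerase alpha and primase genes, which lay down the first RNA and DNA of each fragment, split 2 and 2 at the threshold. All 4 fitted values lay below 0, and differences among the 4 were not tested.

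Pold1, the catalytic subunit gene of polymerase delta, had 30.7, 30.7, 30.2 and 31.3 CPM in KO, against 39.2, 42.3, 36.0 and 40.0 CPM in WT (-0.36 ± 0.05, adjusted p = 0.000615). Its KO libraries lay within a span of about 1 CPM, well under the lowest WT library. Pole, the catalytic subunit gene of polymerase epsilon, had 13.9, 14.7, 15.5 and 15.4 CPM in KO, against 19.3, 17.4, 18.6 and 18.3 CPM in WT (-0.31 ± 0.06, adjusted p = 0.0037). The ratio of Pold1 to Pole was 2.07 ± 0.109 in KO and 2.14 ± 0.214 in WT (exact permutation p = 0.629), with overlap. Pole2 averaged 6.46 ± 0.395 CPM in KO organoids and 8.24 ± 0.456 CPM in WT (-0.35, adjusted p = 0.0101). Pold2 averaged 33.9 ± 1.06 CPM in KO organoids and 40.3 ± 2.56 CPM in WT (-0.25, adjusted p = 0.00746). Every KO library was below every WT library for both. Pold3 averaged 31.5 ± 1.79 CPM in KO organoids and 35.7 ± 0.431 CPM in WT (-0.18, adjusted p = 0.028). Pold3 did not pass when KO replicate 7 or 8 or WT replicate 13 or 14 was left out (adjusted p = 0.0586 to 0.106).

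Prim1, the catalytic primase subunit gene, had 10.3, 12.2, 10.2 and 11.3 CPM in KO, against 13.9, 14.3, 15.7 and 13.2 CPM in WT (-0.38 ± 0.08, adjusted p = 0.00545). Its partner Prim2 had 14.3, 15.1, 13.6 and 13.5 CPM in KO, against 18.5, 15.4, 15.7 and 15.4 CPM in WT, which did not overlap but did not pass (-0.20 ± 0.07, adjusted p = 0.0815). Pola2, the accessory subunit gene of polymerase alpha, had 25.3, 23.1, 25 and 24.1 CPM in KO, against 26.6, 27.9, 24.6 and 30.1 CPM in WT (-0.16 ± 0.06, adjusted p = 0.105), with overlap in WT replicate 15. Pola1, the catalytic subunit gene, averaged 18.7 ± 2.17 CPM in KO organoids and 22.5 ± 1.94 CPM in WT (adjusted p = 0.0465). That call rested on a narrow margin: KO replicate 7, at 22.0 CPM, lay among the WT libraries, and Pola1 did not pass with library totals alone (adjusted p = 0.0522), with no low-count filter (0.0851), or when KO replicate 5, 6 or 8 or WT replicate 13, 14 or 15 was left out (0.056 to 0.142).

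Among clamp, lagging-strand and single-strand binding genes 6 of 11 fell, and members of 1 complex again did not all pass together. Replication factor C (RFC) opens the PCNA ring and places it on DNA. Its genes Rfc3, Rfc4 and Rfc5 fell, while Rfc1 and Rfc2 were not called, and differences among the 5 were not tested.

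Rfc3 had 14.8, 15.3, 15.3 and 15.5 CPM in KO, against 19.1, 18.6, 19.4 and 17.4 CPM in WT (-0.29 ± 0.06, adjusted p = 0.00363). Rfc4 and Rfc5 were also apart, at 13.3 ± 0.278 and 29.9 ± 0.938 CPM in KO organoids and 16.1 ± 0.431 and 34.8 ± 0.711 CPM in WT. Rfc1, the large subunit gene of the loader, had 88.2, 83.0, 88.6 and 80.2 CPM in KO, against 94.6, 80.1, 93.9 and 85.4 CPM in WT (-0.06 ± 0.06, adjusted p = 0.572). Rfc2 had 29.7, 32.9, 30.02 and 30.6 CPM in KO, against 31.5, 34.3, 33.2 and 34.2 CPM in WT (-0.11 ± 0.05, adjusted p = 0.173). All 4 KO libraries of Rfc1 lay within the WT range, and for Rfc2 KO replicate 6 did.

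Pcna, the clamp itself, stood at 165, 178, 171 and 178 CPM in KO, against 182, 187, 187 and 187 CPM in WT. The genotypes did not overlap, yet the difference was small (-0.10 ± 0.04, 6.94% lower) and did not pass (adjusted p = 0.0942). In the authors' TPM it was the highest member, at 274 ± 10.1 in KO and 288 ± 6.74 in WT. A pseudogene named for Pcna, Pcna-ps2, had 436 to 554 counts in KO libraries and 344 to 705 in WT libraries. Pcna had 6968 to 8609 in KO and 6919 to 9276 in WT. The sequences of Pcna and Pcna-ps2 were not compared, so the split of reads between them is uncertain.

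The subunits of replication protein A (RPA), which coats single-stranded DNA, had fitted log2 fold changes of -0.47 (Rpa2), -0.16 (Rpa3) and -0.11 (Rpa1), and differences between them were not tested. Rpa2 (chromosome 4, 132768360 to 132778746) had 12.9, 12.7, 12.7 and 13.0 CPM in KO, against 18.8, 16.8, 19.0 and 16.6 CPM in WT. The KO libraries were nearly equal and all below WT, and the log2 fold change of -0.47 ± 0.06 was the lowest of all members (adjusted p = 0.000275). Rpa1, the large subunit gene, had 61.8, 57.2, 63.9 and 60.0 CPM in KO, against 65.5, 65.5, 65.2 and 66.0 CPM in WT (-0.11 ± 0.04, adjusted p = 0.12). Rpa3, the small subunit gene, had 16.6, 17.7, 17.4 and 17.2 CPM in KO, against 20.6, 21.0, 18.5 and 16.8 CPM in WT (-0.16 ± 0.07, adjusted p = 0.159), with WT replicate 16 inside the KO range. In the authors' TPM, Rpa2 was the lowest of the 3, at 14.4 ± 0.295 in KO and 19.6 ± 1.69 in WT, and Rpa3 the highest, at 54.0 ± 1.502 in KO and 58.9 ± 5.87 in WT.

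Lig1, the ligase gene that seals lagging-strand fragments, had 52.6, 57.2, 51.02 and 50.99 CPM in KO, against 64.4, 65.2, 64.2 and 64.3 CPM in WT (-0.28 ± 0.05, adjusted p = 0.00118). The WT libraries differed by about 1 CPM and all exceeded KO. Fen1, whose product trims the flap before ligation, averaged 19.7 ± 1.45 CPM in KO organoids and 23.7 ± 1.72 CPM in WT (adjusted p = 0.0157), but did not pass when KO replicate 5 (0.0611) or KO replicate 8 (0.0568) was left out. Of its exon bases 84.2% overlap other genes (Tmem258 and Gm10143) on the opposite strand, and the sources used here do not say whether counting used strand.

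**Figure D5:**
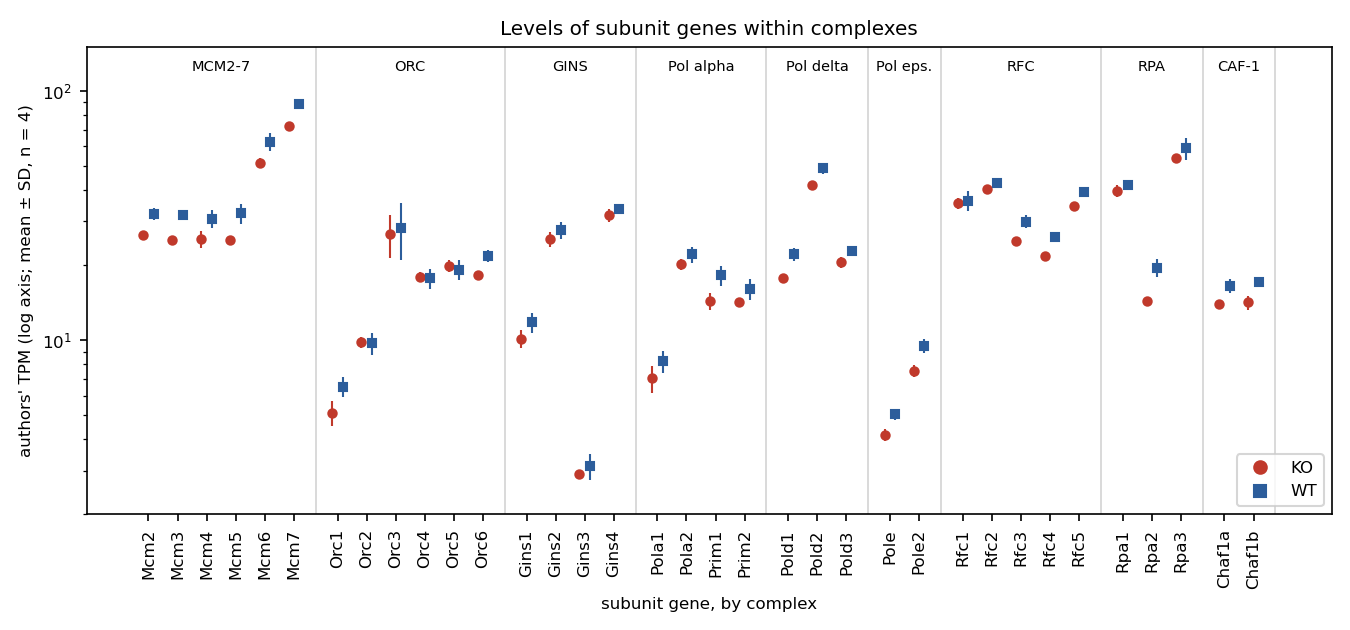
Mean ± SD (n = 4) of the authors' TPM on a log axis for the member genes of 9 complexes, KO left of WT; Pold4, Pole3, Pole4 and Rbbp4, which are not members, are not drawn. Within the ring Mcm7 and Mcm6 stand above the other 4, and Gins3 (2.90 in KO and 3.13 in WT) is the lowest subunit shown.

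Fork protection genes, whose products hold helicase and polymerase together and pass on checkpoint signals, fell in 3 of 4 cases. Timeless had 11.2, 11.8, 12.2 and 10.3 CPM in KO, against 14.3, 14.9, 15.7 and 13.7 CPM in WT (-0.37 ± 0.07, adjusted p = 0.00387). Its partner Tipin had 12.2, 12.7, 14.9 and 13.4 CPM in KO, against 14.4, 15.6, 17.96 and 13.9 CPM in WT (-0.22 ± 0.09, adjusted p = 0.112). The Timeless libraries were apart, and those of Tipin overlapped through KO replicate 7.

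Wdhd1, which links polymerase alpha to the helicase, had 14.2, 16.2, 16.7 and 17.8 CPM in KO, against 19.1, 19.1, 22.7 and 20.9 CPM in WT (-0.33 ± 0.08, adjusted p = 0.011). Clspn, which encodes the checkpoint mediator claspin, had 16.1, 18.4, 21.3 and 16.3 CPM in KO, against 23.8, 21.5, 21.2 and 23.4 CPM in WT (-0.31 ± 0.08, adjusted p = 0.0229). KO replicate 7 overlapped WT replicate 15, and Clspn did not pass when KO replicate 5 or 8 or WT replicate 13 or 16 was left out (adjusted p = 0.056 to 0.0871).

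All 3 genes of replication-coupled chromatin assembly and maintenance DNA methylation fell, each without overlap. Uhrf1 (chromosome 17, 56303337 to 56323486), which brings the maintenance DNA methyltransferase to newly copied DNA, had 66.0, 71.4, 70.9 and 68.6 CPM in KO, against 91.0, 87.2, 91.0 and 92.7 CPM in WT. Its log2 fold change of -0.39 ± 0.04 had the smallest adjusted p of all members (7.35e-05). Chaf1a and Chaf1b encode the large and middle subunits of CAF-1, the factor that puts histones onto new DNA. Chaf1a had 23.2, 23.7, 22.8 and 22.9 CPM in KO, against 27.2, 27.3, 30.01 and 27.4 CPM in WT (-0.27 ± 0.05, adjusted p = 0.00301). Chaf1b had 13.5, 14.3, 14.2 and 12.3 CPM in KO, against 16.9, 16.9, 16.8 and 16.6 CPM in WT (-0.30 ± 0.06, adjusted p = 0.00505). In TPM Chaf1a stood at 14.0 in KO and 16.5 in WT, and Chaf1b at 14.2 in KO and 17.1 in WT. Chaf1a shares 52.5% of its exon bases with Ubxn6 on the opposite strand.

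For complexes whose subunit genes are all among the members, the authors' TPM was summed over subunits. The 4 polymerase alpha and primase genes summed to 55.8 ± 0.733 TPM in KO and 64.6 ± 1.67 TPM in WT, and the RFC genes to 157 ± 2.26 TPM in KO and 174 ± 5.32 TPM in WT. In both, as in the MCM ring, every KO library was below every WT library. GINS genes, none of them called alone, summed to 69.8, 71.7, 73.6 and 65.8 TPM in KO, against 75.1, 75.0, 79.5 and 75.0 TPM in WT, which were apart too. ORC genes summed to 97.6 ± 5.12 TPM in KO and 103 ± 11.8 TPM in WT, and RPA genes to 108 ± 2.77 TPM in KO and 120.5 ± 6.68 TPM in WT; in both the libraries overlapped. For polymerase delta no sum is given, since Pold4 alone stood at 245.5 ± 3.93 TPM in KO and 228 ± 18.1 TPM in WT, above its 3 member genes together. These sums were not tested.

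Beyond the 51, 41 other genes of replication and replication-coupled chromatin were counted, among them topoisomerases, further polymerase subunits, histone chaperones and regulators of origin firing. Of these 11 (26.8%) fell and none rose, against 8.26% of all tested genes called lower, with a median log2 fold change of -0.14, beside -0.28 for the members. Both lists were drawn up with earlier results of these data known, and the difference between them was not tested. Top2a, a topoisomerase gene, stood at 230.2 ± 5.18 CPM in KO organoids and 305 ± 24.96 CPM in WT (-0.40, adjusted p = 0.000214). Asf1b, a histone chaperone gene, stood at 15.8 ± 0.921 CPM in KO organoids and 21.0 ± 0.849 CPM in WT (-0.41, adjusted p = 0.000532). Fbxo5, an inhibitor of the anaphase-promoting complex, stood at 12.3 ± 1.02 CPM in KO organoids and 16.4 ± 1.29 CPM in WT (-0.41, adjusted p = 0.00307). The 12 mitotic genes, of which Top2a is also one, had a median of -0.33. The count of 11 was 5 without KO replicate 8, 6 without KO replicate 6, 6 without WT replicate 13 and 7 without KO replicate 5, fits in which 4.78, 6.91, 5.33 and 5.55% of all tested genes were called lower.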

How the data were processed

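Raw counts, which are whole numbers per gene and library, were deposited by the authors in 1 table with their FPKM values (scaled for length and depth) and their TPM values (scaled to a fixed total per library). HTSeq, Bowtie2, TopHat and TopHat2 and the build GRCm38 are named, per the submitters' processing notes, with no version or role. Per the labels' protocols, stranded mRNA libraries were made from 1 µg of RNA. Genes with 2 counts outnumbered those with 1 in every library (673 to 772 against 548 to 622), so both mates of a pair may have been counted.

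In edgeR 4.0.16 (R 4.3.3), low counts were removed by filterByExpr, libraries were scaled with TMM, and a quasi-likelihood fit gave p-values adjusted by Benjamini-Hochberg over 14945 genes (threshold 0.05). CPM is TMM-scaled, except in the summed CPM of cell type markers, which used library totals alone. The SE is the log2 fold change divided by the square root of F. The step was tested on simulated data. FPKM and TPM were described only, apart from FPKM ratios. All pairs of libraries differed by more than sampling noise. Ratios used two-sided exact permutation tests (scipy 1.17.1). Alternatives used DESeq2 1.42.0 and limma 3.58.1 and left out each library. Exon overlap and GC content came from GENCODE M21, promoters and positions from RefSeq GRCm38.p6. In 19 of 51 members exons overlap another gene, and of the 32 others 20 were called lower. The members and lists were chosen with earlier results of these data known. Per role, values by library are given for the 3 members with the smallest adjusted p and for members not called while partners were; some further values were added after they were seen. Precision is limited by totals of 37182098 to 49256171 counts.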

Additional observations from a re-analysis of the deposited data

Results flagged for a closer look

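In 9 of 102 groups of 4 libraries, 1 library stood far from the other 3, the share of the range taken by its gap to the nearest being over Dixon's 95% critical value; chance gives about 1 in 20. In KO, Mcm7 was 94.6 CPM in replicate 6 against 86.5 for the nearest, Mcm8 was 8.95 CPM in replicate 6 against 10.2, and Pola1 was 22.0 CPM in replicate 7 against 17.8. In WT, Orc3 was 51.04 CPM in replicate 16 against 57.4, Prim2 was 18.5 CPM in replicate 13 against 15.7, and Pcna was 182 CPM in replicate 13 against 187. Also in WT, Rfc5 was 35.9 CPM in replicate 14 against 34.6, Lig1 was 65.2 CPM in replicate 14 against 64.4, and Chaf1a was 30.01 CPM in replicate 15 against 27.4.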

How the results depend on the processing

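Of the 33 members called lower, 27 were called lower in all 16 alternatives (other scalings, DESeq2, limma-voom, other filters, each library left out, and a smooth on GC content and length added after the data were seen). The calls of Gmnn, Mcm10, Pola1, Pold3, Fen1 and Clspn ended in at least 1. Members lower numbered 32 to 36 with all libraries and 27 (without KO replicate 8, when 4.78% of all genes were lower) to 33 with 1 left out. Their median log2 fold change was -0.29 to -0.26. Pola2, Prim2, Rpa1, Rpa3 and Tipin were each called lower in 1 alternative. No member was called higher in any. The other replication genes called lower numbered 5 to 14 with 1 library left out, and those higher 0 to 1, namely Top1 without WT replicate 15; after the smooth 1 was higher, namely Pold4. The median of all tested genes was -0.0029 to 0.0038 over the alternatives. The ratio calls did not change, although with all libraries a single ratio cannot pass after adjustment. With 1 library left out, 3 against 4 libraries cannot reach 0.05. No paired analysis was possible because the genotypes share no replicate number.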
